A study of Arabidopsis thaliana with 8 samples.

Results

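Of 22746 probe sets on the Arabidopsis ATH1 array, control probe sets left out, 86 formed a set whose signal was higher after 24 h at 4 °C and close to the warm level, or under it, after 7 d. A probe set is the group of short array probes that measures 1 transcript, or a few alike ones. The members were chosen by their measured values on all 8 arrays. With L the mean of log2(signal + 6) over the 2 arrays of a time, a member had L at 24 h at least 1 above the control, L at 1 h less than 0.8 above it and L at 7 d less than 0.3 above it. It also read 40 or more on both 24 h arrays, and both of those lay above both control arrays. Because the values of every time entered this choice, differences between times describe the members, and counts from a fit over all probe sets, given below, are no independent test of them.

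Of 660 probe sets that met the 1 h and 24 h criteria, 92 (13.9%) were under 0.3 at 7 d, and 568 were at 0.3 or more, of which 234 were still at 1 or more. From the 92, 6 were left out because their genes belong to other groups: 1 UDP-glycosyltransferase gene (UGT84A3), 4 genes of ribosome biogenesis (AT2G40360, AT5G15550, AT4G28450 and AT5G20600) and 1 of the ribosomal protein families (AT3G58660). Among the 92, 0 were named EXLA1 or LEA4-5, which the rule also leaves out. The array's annotation named 1 gene for 35 of the 86 members, several for 1 and none for 50. The last 50 are called by their probe set, and whether any of them belongs to a group left out could not be judged. The 35 were judged for ribosome-related genes from general knowledge alone, so genes of ribosome biogenesis may remain among them.

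Plants were the above-ground parts of Arabidopsis thaliana Col-0, a wild-type laboratory accession, grown on soil in continuous fluorescent light at 22 °C for 10 d. The control (0 h) was harvested warm, in light of 100 µmol m−2 s−1. The other plants were moved to 4 °C in light of about 25 µmol m−2 s−1 and harvested after 1 h, 24 h or 7 d, with 2 arrays at each of the 4 times; the dimmer light is from the treatment notes, while the growth notes give the same 100 for every sample. All plants had been stratified for 4 d in the cold as seed, and all are labelled 18 d old. The labels do not say whether plants kept 7 d in the cold were older than the control. By the treatment notes every cold sample also had dimmer light than the control. The effects of cold, of light, of the time spent there and of plant age therefore cannot be told apart. The labels do not say that the 2 arrays of a time came from separate flats of plants, so their spread may be partly technical.

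When a plant of a temperate species meets cold above freezing, it goes through cold acclimation. The CBF transcription factors appear early and switch on COR (cold-regulated) genes, whose protective proteins then persist for as long as the cold lasts. Alongside this lasting programme, many transcripts change only for a day or so while growth, cell walls, RNA handling and metabolism are adjusted to the lower temperature, and then return. The members here share only the time course of that second kind, since the rule asked for a level near the warm one at 7 d. Whether they take part in any such adjustment, or answer to the cold itself, was not tested. In whole shoots, more transcript per cell and more cells of a type that holds it cannot be told apart.

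Median signals of the arrays ran from 32.8 to 37.7. The lowest were those of the 24 h arrays, 34.3 and 32.8, against 37.7 and 37.7 in the control. Across probe sets, which are not independent replicates, arrays of the same time correlated with r = 0.97 to 0.98 and arrays of different times with r = 0.94 to 0.97. COR15A, a COR gene for a protein that protects chloroplasts, had control readings of 472 and 289, 1 h readings of 396 and 211, 24 h readings of 6316 and 6125, and 7 d readings of 4573 and 4293. Of 5 leaf markers 2 were named, both of photosynthesis: RCA (Rubisco activase) read 5935 and 5056 in the control, 5464 and 5787 at 24 h, then 3482 and 3404 at 7 d, and SBPASE read 3279 and 2623, 2572 and 2313, then 2164 and 2199. By limma both were lower at 7 d than in the control (-0.67 and -0.43), against 8.54% of all probe sets tested. From 24 h to 7 d 1 of them was lower, against 4.21% of all. Of 6 root markers 3 were named by the annotation: the root-hair expansins EXPA7 and EXPA18 read 2.20 to 26.5, and PYK10 read 152 and 130 in the control against 109 and 85.3 at 24 h, then 15.6 and 18.9 at 7 d. None of the flower or seed markers was named. Ratios of control probe sets at the 3' and 5' ends of a transcript, a measure of RNA quality, were for GAPDH 0.71 and 0.78 in the control, 0.83 and 0.82 at 1 h, 0.80 and 0.79 at 24 h, then 0.85 and 0.82 at 7 d. For Actin they were 1.31 and 1.32, 1.31 and 1.403, 1.15 and 1.37, then 1.47 and 1.37, and for Ubq 1.45 and 1.34, 1.34 and 1.095, 1.34 and 1.39, then 1.38 and 1.31, with no shared order of the times. The part of RNA quality, and of the drops of PYK10 and the leaf markers, in the members' values was not tested.

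Taken over all 86 members, the signal at 24 h was a median of 1.19 above the control on the log2 scale, with quartiles of 1.09 and 1.37 and a range from 1.01 to 2.38. Most lay close to the lower bound: 58 were under 1.3, 13 were at 1.5 or more and 2 at 2 or more. Among the 564 probe sets that met the same 24 h criteria but stayed at 0.3 or more at 7 d, the median was 1.45 and the highest 6.35, and 123 (21.8%) were at 2 or more, against 2.33% of the members. The sets were split by their 7 d difference, which uses the same control arrays as the 24 h difference. These figures therefore stand side by side without a test. In all 86 members both 24 h arrays lay above the other 6 arrays, which held for 9.17% of all probe sets. The lower 24 h array was a median of 1.69 times the highest of the other 6, and at the least 1.06 times.

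At 7 d the members' median difference from the control was 0.16, with quartiles of -0.09 and 0.23. The bound at 0.3 was well populated: 30 members lay from 0.2 up to it, 27 from 0 to 0.2, and 29 under 0. The 7 d and control arrays overlapped in 62 members, both 7 d arrays were above both control arrays in 13 (23.1% of all probe sets) and both were below in 11 (27.6% of all). Of the log2 difference seen at 24 h a median of 12.9% was left. From 24 h to 7 d the signal dropped by a median of 2.20-fold, ranging from 1.70-fold to 19.95-fold.

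At 1 h the members were near their warm level, as the rule asked for no more than an upper bound: the median difference was 0.05 and the quartiles were -0.11 and 0.24. Within 0.3 of the control lay 63 members, 16 were further above it and 7 further below. Both 1 h arrays were above both control arrays in 22 members (12.9% of all probe sets) and below in 11 (23.4% of all).

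**Figure D1:**
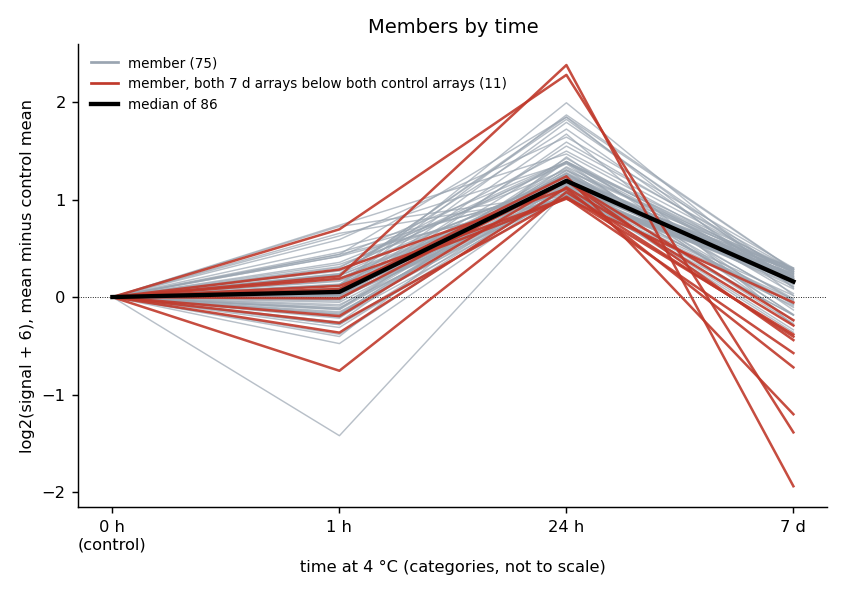
Each line is 1 of the 86 members, drawn as its mean log2(signal + 6) minus the control mean (vertical axis) at 0 h, 1 h, 24 h and 7 d (horizontal axis, categories not to scale); red lines are the 11 members whose 7 d arrays both lay below both control arrays, and the black line is the median of all 86. The median goes from 0.05 at 1 h to 1.19 at 24 h and 0.16 at 7 d, and 3 red lines end at or below -1.

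A limma fit over 14756 probe sets, with Benjamini-Hochberg adjustment over all of them, gave the standard errors used here, with a median of 0.22 over the members (0.11 to 0.54). By its adjusted p under 0.05, 81 of the 86 members were higher at 24 h than in the control, against 11.1% of all probe sets tested. From 24 h to 7 d 72 were lower, against 4.21% of all. At 7 d against control 5 members were lower (8.54% of all) and by limma 0 were higher (7.33% of all), with 1 higher at an unadjusted p under 0.05. At 1 h by limma 0 members were higher (0.867% of all) and 0 lower (0.0407% of all), with 8 higher and 4 lower at an unadjusted p under 0.05. The rule bounded the values at all of these times, 0.3 at 7 d and 0.8 at 1 h included, so nothing is read from any of these counts or from their distance to the shares of all probe sets. The 5 members not among the 81 at 24 h were CYP71B26 and 4 unnamed probe sets, with standard errors from 0.37 to 0.54.

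**Figure D2:**
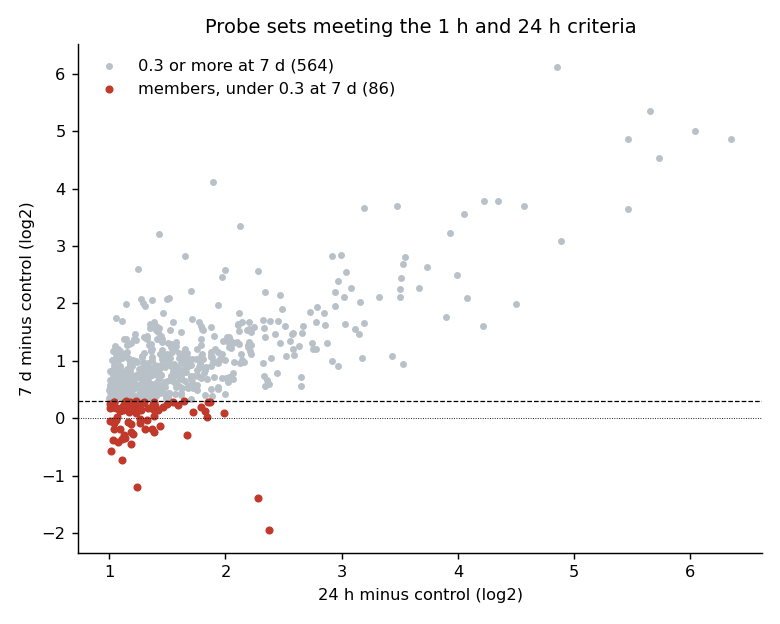
Probe sets that met the 1 h and 24 h criteria, less those left out by gene group, plotted as the 24 h difference from control (horizontal, log2) against the 7 d difference (vertical, log2); red points are the 86 members and grey points the 564 that stayed at 0.3 or more, with a dashed line at 0.3 and a dotted line at 0. At 24 h 58 of the members lie under 1.3 and 2 at 2 or more; at 7 d 30 lie from 0.2 up to the dashed line, 27 from 0 to 0.2 and 29 under 0.

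The 35 genes named among the members are taken by role. Protein families are given as general background on these loci for 27 of them; the annotation used here gave a symbol to 3 (EXLA2, CYP71B26 and GH3.3) and a locus tag alone to the other 32. A role was not given to AT5G57120, AT3G01160, AT3G15080, AT5G62440, AT5G50100, AT5G64420, AT1G70420 and AT4G38710, whose 24 h differences ran from 1.04 to 1.24.

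Genes for cell wall and secreted proteins held the largest 24 h differences among the named members, from 1.17 to 2.28 with a median of 1.84 over 5 genes. AT5G62350, of the family of invertase and pectin methylesterase inhibitors, which restrain enzymes of the wall and of sucrose breakdown, read 1193 and 875 on the control arrays, 1387 and 885 at 1 h, 3709.9 and 3774 at 24 h, and 1400.5 and 1099.5 at 7 d. The 24 h arrays were nearly equal and stood far above the other 6, among which the times overlapped. The 24 h signal was 3.65-fold the control on the log2(signal + 6) scale (1.87 ± 0.22 SE, n = 2 arrays per time), and 0.28 was left at 7 d. This was the highest 24 h signal among the named members.

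AT3G49220 belongs to the pectin methylesterases, which trim methyl groups from wall pectin. It read 684 and 617 on the control arrays, 659.7 and 663 at 1 h, 1505 and 1429.8 at 24 h, and 789 and 624 at 7 d. Its 24 h difference was 1.17 ± 0.13 (SE), and 1 of the 7 d arrays lay within the control range. EXLA2, an expansin-like protein of a family known for loosening walls, read 28.5 and 21.2 on the control arrays, 36.3 and 25.0 at 1 h, 106 and 85.4 at 24 h, and 38.0 and 18.7 at 7 d. Here the 7 d arrays spanned the control arrays on both sides, and the 24 h difference was 1.72 ± 0.30.

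Of 18 expansin genes named by symbol, a family taken after its values were seen, 10 were tested. At 24 h against control 2 were higher (EXLA1 and EXLA2, against 11.1% of all probe sets tested) and 5 lower (15.1% of all). EXLA2, as a member, was chosen by its 24 h value. The median difference was -0.26, while the median of all probe sets tested was -0.10. The lower ones included EXPA8, which read 412 and 214 on the control arrays, 34.7 and 13.8 at 24 h, and 44.3 and 43.3 at 7 d. EXLA1, no member because it was already 2.32 above control at 1 h, stood at 2.37 at 24 h and -0.40 at 7 d. At 7 d 4 of the 10 were lower (8.54% of all) and 0 higher by limma (7.33% of all). In the wider list of genes with cell wall words in their RefSeq symbols or synonyms, 25 were tested, with 3 higher (11.1% of all) and 10 lower (15.1% of all) at 24 h and a median of -0.52.

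AT1G20030, of the thaumatin family of secreted defence-type proteins, went from 22.6 and 26.0 on the control arrays to 40.02 and 46.0 at 1 h, 160 and 123 at 24 h, and 9.42 and 2.66 at 7 d. The groups did not overlap at any time: both 1 h arrays were above the control, the 24 h arrays were above those, and the 7 d arrays were lowest. Its 24 h difference of 2.28 ± 0.29 was the largest of the named members. Its 7 d signals were well under the array medians, and the size of its 7 d difference depended on the pseudocount: it was -1.39 with 6, -2.03 with 1 and -0.57 with 32. AT5G62210, of a family named for embryo-specific proteins, read 135 and 219.97 on the control arrays, 174 and 235 at 1 h, 579 and 696 at 24 h, and 202 and 150.4 at 7 d. Its 7 d arrays lay between the control arrays (0.02), and its 24 h difference was 1.84 ± 0.25.

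**Figure D3:**
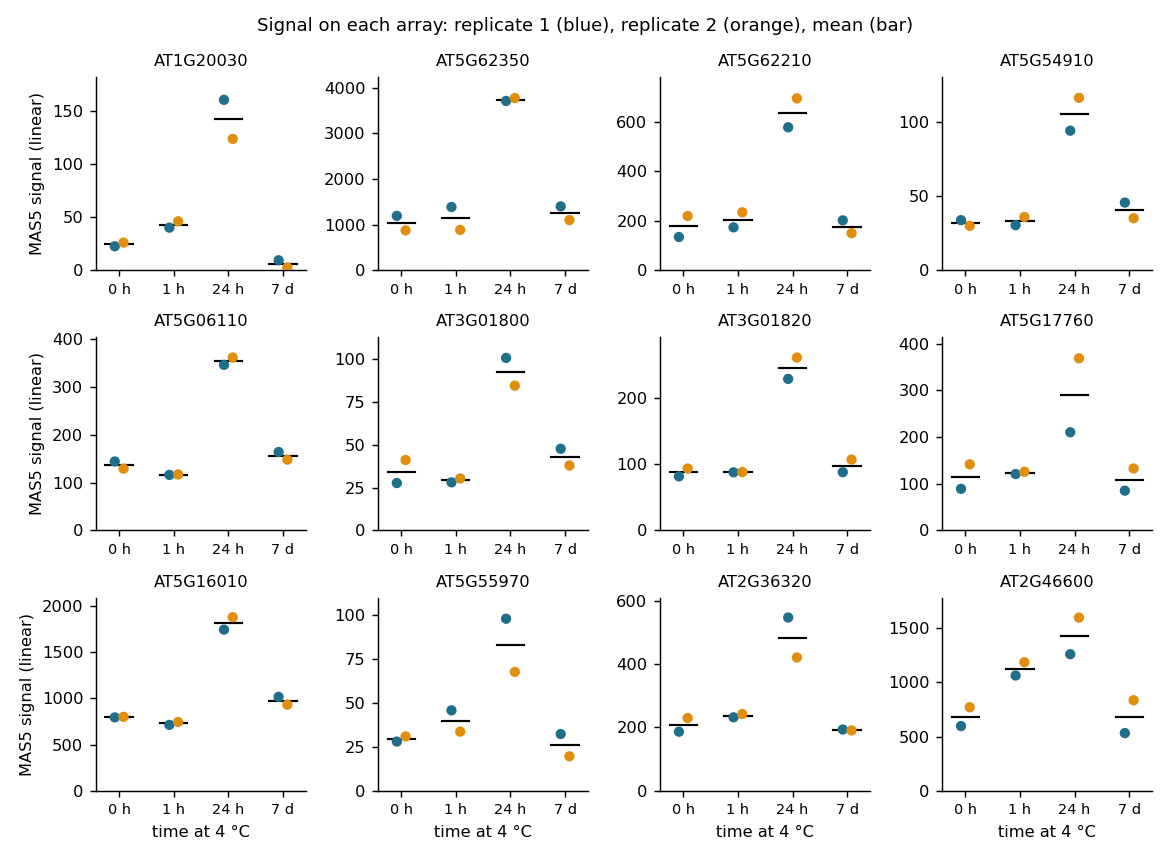
MAS5 signal on a linear scale (vertical) at 0 h, 1 h, 24 h and 7 d (horizontal) for the 3 named members of each of the 4 role groups with the largest 24 h difference; blue points are replicate 1, orange points replicate 2 and bars their mean. The 24 h points stand above all others in each of the 12 panels, AT1G20030 ends below its control points, and AT2G46600 is already raised at 1 h.

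Genes for gene expression and protein folding were 8, with 24 h differences from 1.13 to 1.55. At 1 h all but AT5G54910 and AT5G46920 were under the control mean, the group's 1 h differences running from -0.38 to 0.09. AT5G54910, a DEAD-box RNA helicase of the enzymes that unwind RNA, read 33.9 and 30.1 on the control arrays, 30.5 and 36.0 at 1 h, 94.3 and 116 at 24 h, and 45.8 and 35.2 at 7 d. It was 2.92-fold the control at 24 h (1.55 ± 0.19), and both 7 d arrays stayed slightly above both control arrays. AT3G01800, of the family of ribosome recycling factors, which release ribosomes after translation, read 27.7 and 41.1, then 28.1 and 30.3, then 101 and 84.5, then 47.6 and 37.9 at the 4 times in order. Its 7 d arrays overlapped the control.

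The group held a pair of DnaJ-type co-chaperone genes, whose proteins hand clients to Hsp70. AT5G06110, which also has Myb-like domains, read 144 and 129 on the control arrays, 116 and 117 at 1 h, 346 and 362 at 24 h, and 164 and 148 at 7 d. AT3G14200 read 44.3 and 43.6 on the control arrays, 35.1 and 40.4 at 1 h, 92.7 and 126 at 24 h, and 35.6 and 37.2 at 7 d. In AT3G14200 both 1 h and both 7 d arrays were below the control, while in AT5G06110 the 7 d arrays were above it (0.18). An Hsp70 gene of the chaperone list, AT3G09440, shared this shape but missed the 7 d bound: it read 960 and 1005 on the control arrays, 3123 and 2921 at 24 h, and 1013 and 1747 at 7 d, a 7 d difference of 0.44. Of that list's 23 genes 3 were named and 2 tested. AT3G09440 alone passed as higher at 24 h (11.1% of all probe sets tested). At 7 d 0 passed by limma (7.33% of all were higher and 8.54% lower).

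The other members of this group were AT5G46920, of the intron maturases that help splice organelle transcripts, the pentatricopeptide repeat genes AT2G17670 and AT3G13150, of a family that binds organelle RNA, and AT1G75670, of the DNA-directed RNA polymerase family. AT5G46920 read 58.0 and 43.7 on the control arrays, 124 and 124 at 24 h, and 37.6 and 44.1 at 7 d (-0.27). AT2G17670 was less steady, at 39.4 and 76.4 on the control arrays against 121 and 138 at 24 h, and 72.0 and 58.1 at 7 d, within the control range. Of genes just outside the 24 h bound, NRPA1, which encodes the largest subunit of RNA polymerase I, stood at 0.98 at 24 h and 0.12 at 7 d.

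Genes for metabolism and transport were 7, with 24 h differences from 1.03 to 1.42. AT3G01820, of the adenylate kinase family that balances adenine nucleotides, read 81.8 and 93.8 on the control arrays, 88.0 and 88.4 at 1 h, 229 and 261 at 24 h, and 88.1 and 107 at 7 d, so its control, 1 h and 7 d arrays ran together. It lies 1 gene away from AT3G01800 in the RefSeq order of chromosome 3, the only pair of the 35 genes within 5 genes of each other. AT1G30820, of the CTP synthases that make the nucleotide CTP, read 108 and 102 on the control arrays, 155 and 115 at 1 h, 242 and 240.4 at 24 h, and 126 and 77.7 at 7 d. Its 24 h arrays were almost equal, and its 7 d arrays spanned the control.

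AT5G16010, of the steroid 5-alpha-reductase family, had the smallest standard error of the members: it read 794 and 799 on the control arrays, 713 and 744 at 1 h, 1744 and 1879 at 24 h, and 1016 and 931 at 7 d (1.18 ± 0.11 at 24 h). Its 7 d arrays were both above the control, at a difference of 0.29, just inside the bound. AT1G19450, of the ERD6-like sugar transporters, read 358 and 506 on the control arrays, 417 and 524 at 1 h, 961 and 802 at 24 h, and 515 and 475 at 7 d, so the control and 7 d arrays overlapped. AT5G17760, an AAA-type ATPase, read 210.4 and 369 at 24 h, against 89.2 and 142 in the control and 85.3 and 133 at 7 d. AT3G53940, a mitochondrial carrier that moves metabolites across the inner membrane, read 39.4 and 25.3 on the control arrays, 70.8 and 74.5 at 24 h, and 37.5 and 35.6 at 7 d.

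CYP71B26, a cytochrome P450 of the oxidising enzymes of plant secondary metabolism, read 51.9 and 109 on the control arrays, 53.7 and 112 at 1 h, 136 and 194 at 24 h, and 103 and 73.2 at 7 d. In each of the first 3 times replicate 2 was the higher, and its 24 h difference was 1.05 ± 0.39 (SE). Of 19 CYP71B genes named by symbol 11 were tested, and at 24 h 0 were higher by limma (11.1% of all) and 3 lower (15.1% of all), with a median difference of -0.45. The 12 tested genes with cytochrome P450 in their RefSeq symbols or synonyms had 3 lower at 24 h, 0 higher by limma and a median of -0.43. CYP71B26 was the only one of the 11 CYP71B genes with a 24 h difference above 0.2, with CYP71B35 next at 0.18. As a member, CYP71B26 was chosen by its 24 h value, so nothing is read from its place in the family.

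Genes for signalling and regulation were 7, with the lowest median at 7 d of the role groups (-0.11). AT2G46600, of the EF-hand calcium-binding proteins, was close to the 1 h bound: it read 597 and 771 on the control arrays, 1064 and 1187 at 1 h, 1260.5 and 1598 at 24 h, and 532 and 835 at 7 d. Both 1 h arrays were above both control arrays (0.72), the 24 h arrays were higher still (1.06 ± 0.22), and the 7 d arrays spanned the control. AT2G36320, of the A20/AN1 zinc-finger proteins often linked to stress, read 187 and 229.9 on the control arrays, 232 and 243 at 1 h, 548 and 422 at 24 h, and 194 and 191 at 7 d. AT5G55970 and AT5G62910 are RING-type zinc-finger genes, a family in which many proteins attach ubiquitin. AT5G55970 read 28.0 and 30.9 on the control arrays, 98.0 and 67.7 at 24 h, and 32.3 and 19.6 at 7 d, and AT5G62910 read 52.0 and 49.0, then 134 and 88.2, then 76.9 and 43.9 at the same times.

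GH3.3, an enzyme that joins the growth hormone auxin to amino acids and so removes its active form, read 35.9 and 19.96 on the control arrays, 15.1 and 29.8 at 1 h, 68.1 and 55.1 at 24 h, and 19.8 and 18.8 at 7 d. Its mean 24 h signal was the lowest of the 35 named members, and both 7 d arrays were below both control arrays, by little for the lower control array. Of the 4 GH3 genes named by symbol, 3 were tested. GH3.3 alone passed as higher at 24 h (11.1% of all probe sets tested), and it was chosen by its 24 h value. AT2G45820 is a remorin, a family of plasma-membrane proteins. It read 491 and 476 on the control arrays, 609 and 498 at 1 h, 1059 and 914 at 24 h, and 358 and 290.4 at 7 d, and the control, 24 h and 7 d arrays were apart from each other. AT5G52660, of the Myb-like homeodomain family that includes clock regulators, read 59.9 and 71.3 on the control arrays, 131 and 152 at 24 h, and 83.6 and 77.7 at 7 d (0.28), above the control on both arrays.

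**Figure D4:**
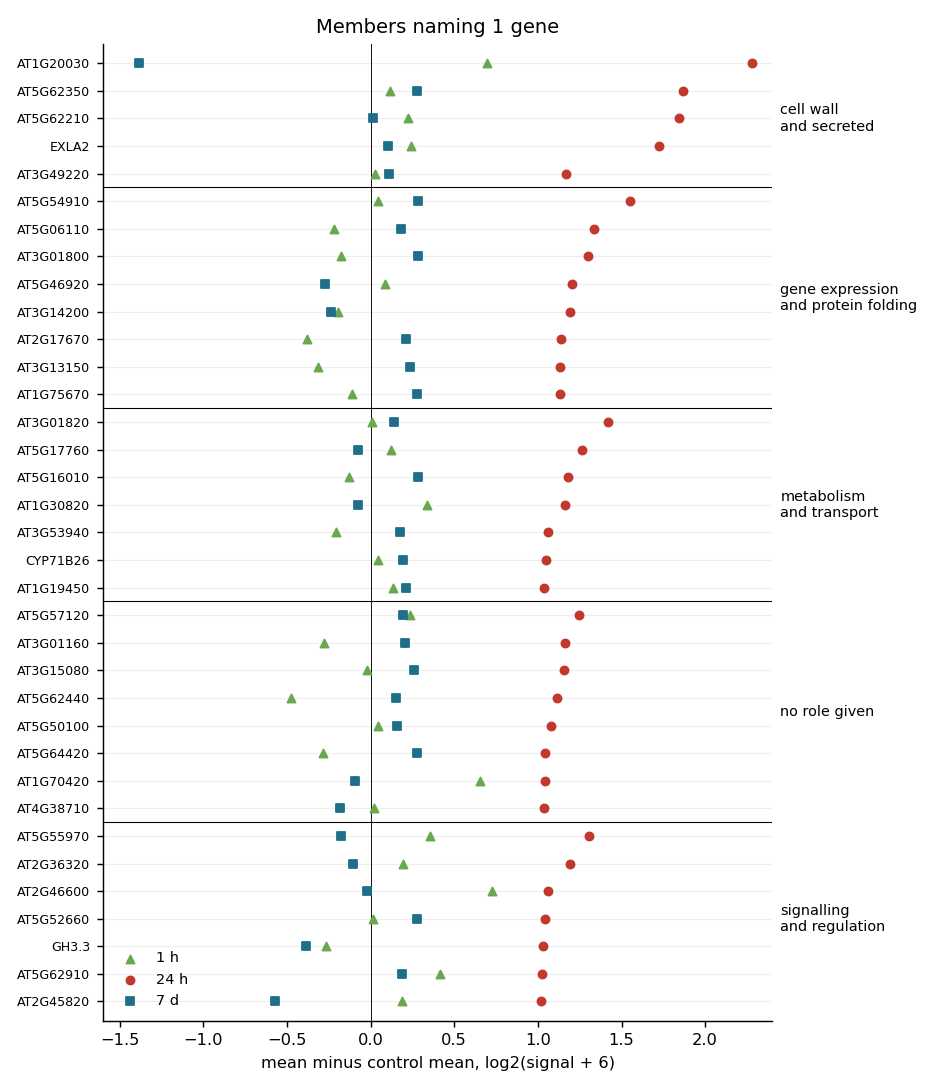
The 35 members that name 1 gene, grouped by role, with the difference of each cold mean from the control mean on the log2(signal + 6) scale (horizontal) at 1 h (green triangles), 24 h (red circles) and 7 d (blue squares). Cell wall and secreted genes reach furthest right at 24 h, up to 2.28, and AT1G20030 has the lowest 7 d value, -1.39.

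Some members had a 7 d mean under their warm level: 10 were at -0.3 or lower, and 3 were at -1 or lower. The shares of all probe sets at these levels were not counted. Both 7 d arrays lay below both control arrays in 11 members, against 27.6% of all probe sets. In 251356_at and 262526_at, which are among the 10, the 7 d arrays overlapped the control arrays. The largest 24 h difference of all members, 2.38, and the deepest 7 d value, -1.94, belonged to the same unnamed probe set, 262113_at. It read 139 and 146 on the control arrays, 149.5 and 183 at 1 h, 752 and 776 at 24 h, and 31.2 and 34.0 at 7 d. Its 24 h signal was thus 19.95-fold that of 7 d, and the control was 3.84-fold that of 7 d. The other unnamed member far under control, 252885_at, read 783 and 460.2 on the control arrays, 1266 and 1603 at 24 h, and 237 and 280.5 at 7 d (-1.20). The 5 members past limma's threshold as lower at 7 d were these 2, AT1G20030, AT2G45820 and the unnamed 248369_at. The count was 1 without control replicate 1, 3 without control replicate 2, 3 without 7 d replicate 1 and 2 without 7 d replicate 2.

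At 24 h 13 members read 1000 or more on average (8 with no gene named, against 50 of all 86) and 11 under 100, with a median of 215. The brightest, 257173_at, read 1714 and 1819 on the control arrays, 1256 and 1737 at 1 h, 4767 and 4508 at 24 h, and 1848 and 1774 at 7 d, so the control and 7 d arrays overlapped. In the control the members stood at a median signal of 87.0, the 69.1st percentile of all probe sets. The named and the unnamed members had like medians, 1.16 and 1.23 at 24 h and 0.16 and 0.16 at 7 d.

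At the edges of the rule, the members nearest the 24 h bound were 264974_at at 1.01, 261728_at at 1.01, 259878_at at 1.01, AT2G45820 at 1.02 and AT5G62910 at 1.02. Just outside it lay AT4G38150 at 0.99, NRPA1 at 0.98 and AT1G69070 at 0.98. Nearest the 7 d bound inside was 253103_at at 0.298, and nearest outside were 263128_at at 0.31 and GID1B, a gibberellin receptor gene, at 0.31. Nearest the 1 h bound inside was 259681_at at 0.74, and AT2G34060 at 0.83 was the only probe set, apart from genes left out by name such as EXLA1, that the 1 h bound alone left out.

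The rule was also applied to the arrays of 1 replicate number alone, and the probe sets chosen were read on those of the other. The 2 arrays of a time may not come from separate plants, so this is no independent check. On the arrays numbered 1 alone, 68 probe sets met all criteria (0.308% of all probe sets before genes were left out). On the arrays numbered 2 their median difference was 1.19 at 24 h and 0.04 at 7 d, 38 were at 1 or more at 24 h (5.26% of all probe sets) and 44 under 0.3 at 7 d (76.8% of all), and 20 (29.4%) met all criteria there too. Chosen on the arrays numbered 2, 115 did (0.532% of all). On the arrays numbered 1 their medians were 1.28 at 24 h and 0.48 at 7 d, 87 were at 1 or more at 24 h (5.66% of all), 40 were under 0.3 at 7 d (72.5% of all), and 20 (17.39%) met all criteria. The median of all probe sets was -0.09 at 24 h on either replicate number. Each side then holds 1 array per time. The chosen sets had to read 40 or more at 24 h on the array that chose them, while the shares of all probe sets include dimmer ones. In all, 16 of the 86 members met the rule without any 1 of the 8 arrays, 8 of them named: AT1G20030, AT1G30820, AT2G36320, AT3G01820, AT3G49220, AT5G06110, AT5G46920 and AT5G55970.

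**Figure D5:**
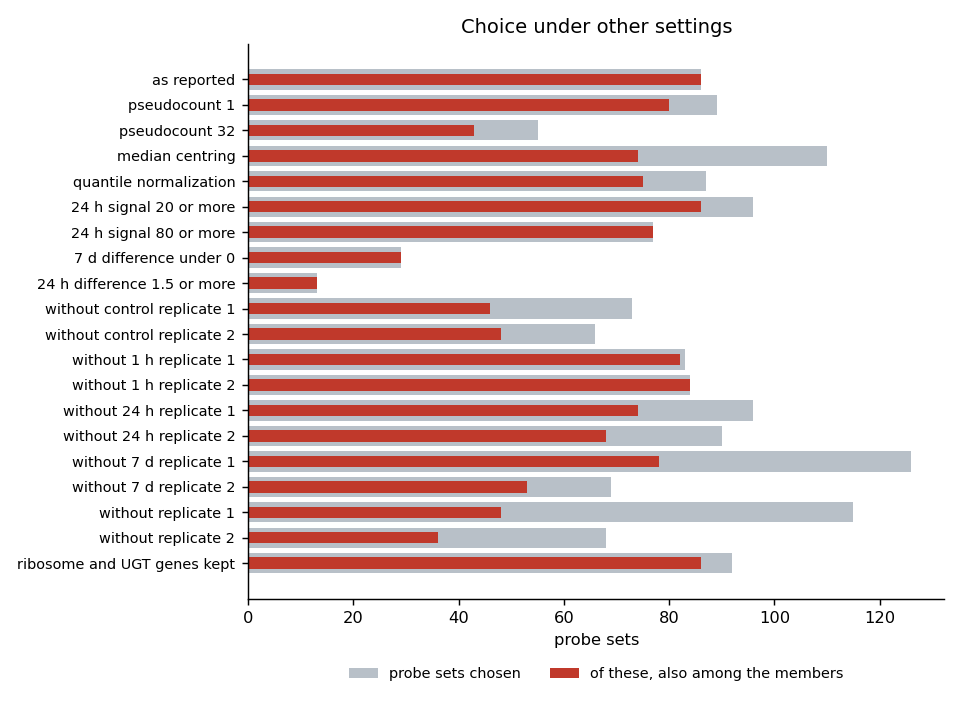
Number of probe sets chosen (grey bars, horizontal axis) when 1 setting of the rule or 1 or more arrays are changed, with the number also among the 86 members in red. Without control replicate 1 the count is 73 with 46 of the members among them, and without 7 d replicate 1 it is 126 with 78.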

How the data were processed

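The deposited values are linear-scale signal intensities that the authors made with MAS5, 1 for each probe set and array. The submitters' processing notes name MAS5; a version is not given in the sources used here. Groups and replicate numbers came from the sample titles. The intensities were used as log2(signal + 6); a fold change is on that scale and understates changes of weak signals. Gene names came from the platform annotation through RefSeq's table for TAIR10.1, used for names and gene order alone. The annotation gave 1 gene to 13513 probe sets, several to 503 and none to 8730.

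The fit took probe sets that reached the 40th percentile of signals on 2 or more arrays, and was run with limma 3.58.1 in R 4.3.3 (1 mean per time over all 8 arrays, variance trend, two-sided, Benjamini-Hochberg adjustment over all), after a test on simulated data. Only 2 arrays per time limit the precision. Members, gene lists, roles and tests were chosen with earlier results of these data known. The genes named are members with a symbol, those with the largest 24 h differences or signals, those lowest at 7 d, those nearest a threshold, and the named members of each role group. The 5 ribosome-related loci left out were recognised from general knowledge. RefSeq product names were not used here, so lists by words were read from symbols and synonyms, and promoter motifs were not analysed here. Lists fixed for jasmonate, abscisic acid and sugar and compatible solutes had 0 named genes. Clock (1 of 13 named), flavonoid (1 of 15) and cold-regulated (4 of 12) genes held 0 members.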

Additional observations from a re-analysis of the deposited data

Results flagged for a closer look

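In 11 members both 24 h arrays lay above both control arrays and both 7 d arrays below them, on opposite sides of the same control. Both 7 d arrays lay below both control arrays in 27.6% of all probe sets, a larger share than 11 of the 86 members. The 24 h side of this was required by the choice of members. The limma fit of 7 d against 24 h is no independent test of the difference, because both times entered that choice. The 7 d minus control values on the log2(signal + 6) scale were -1.94 for 262113_at, -1.39 for AT1G20030 (between -2.03 and -0.57 by pseudocount), -1.20 for 252885_at, -0.72 for 248369_at and -0.57 for AT2G45820. They were -0.44 for 262626_at, -0.41 for 264452_at, -0.38 for GH3.3, -0.29 for 255364_s_at, -0.24 for AT3G14200 and -0.056 for 261728_at.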

How the results depend on the processing

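The probe sets chosen changed with the setting, also where their number was alike. Of the 86 members, 80 were still chosen with a pseudocount of 1 and 43 with 32. With median centring 74 of them were still chosen, and with quantile normalization 75. The number of members, 86, was 55 with a pseudocount of 32, 29 with a 7 d difference under 0 and 13 with a 24 h difference of 1.5 or more. It was within 1.5 times of 86 for a pseudocount of 1 (89), median centring (110), quantile normalization (87), 24 h signals of 20 (96) or 80 (77) or more and, chosen after seeing the data, with the left-out genes kept (92). Leaving out arrays gave 66 to 126. Members past limma's threshold, leaving out 1 array, were 62 to 81 for 24 h against control, 27 to 72 for 7 d against 24 h (32 and 27 without 24 h replicate 1 and 2, 34 without 7 d replicate 2), 1 to 5 for 7 d against control and 0 for 1 h. With only the times compared, 3 members were lower at 7 d. Blocking on the replicate number gave counts of 86 at 24 h, 83 for 7 d against 24 h, 6 at 7 d and 1 at 1 h. Deviations of same-numbered arrays correlated with r = 0.16 to 0.36 between times, but the numbers alone do not show a shared batch. Of 480 recomputed values of single genes 0 changed sign and 22 moved by more than the spread of their arrays. The rule put both 24 h arrays above both control arrays. Leaving out an array or changing the pseudocount therefore could not reverse a 24 h value. Leaving out an array of a time not compared could not change a value at all. Nothing is read from the count of unchanged signs. The promoter motif alternative was not run.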
